A study of Mus musculus with 4 samples.

Results

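Liver RNA collected at CT34 was compared with liver RNA collected 6 h earlier, at CT28, in mice carrying the Clock-delta-19 mutation. CT is circadian time, counted in hours in constant darkness. Members of the comparison were genes with a mean of at least 100 recovered reads over the 4 libraries of the series, which left 9244 of 24196 genes with a symbol. The other 14952 genes were not compared, and 6672 genes had no read at either time. A gene could pass this filter through its reads at CT22 or CT40 alone. At CT34 27 genes (0.292% of those compared) were at least 2-fold higher than at CT28, and 52 (0.563%) were at least 2-fold lower.

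Both groups were C57/BL6 mice that carried 3 changes: the Clock-delta-19 mutation, the tetO::Clock-HA transgene and its driver, Scg2:tTA. Doxycycline at 30 ug/ml in the drinking water, begun 3 days before constant conditions, was given to all of them, so the transgene, which doxycycline shuts off, was meant to be silent in both groups. The Scg2 promoter is active in neurons and endocrine cells, and the driver is known for its use in the brain. Before the move to darkness the lighting cycle was 12 h light with 12 h dark. No library without the mutation is part of the series, and animal age and sex are not given in the labels. RNA of 3 animals was pooled into 1 library at each time. With 1 library a time there is no test, and every ratio compares those 2 libraries, not the conditions. A ratio is CT34 over CT28 after scaling with TMM, a method that assumes most genes are level, and its 95% interval covers counting error only. Reads from PCR without molecular identifiers are not independent molecules, so these intervals are lower limits of the error.

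Recovered gene reads numbered 19765974 at CT28 and 18678015 at CT34, and 17443175 and 20000665 at CT22 and CT40. For genes with 100 to 200 reads the upper end of the interval lay a median of 1.27 times above the ratio, and for genes with at least 1000 reads 1.07 times. The libraries differed in more than the genes named below. For every 100 gene reads there were 20.7 intron reads at CT28 and 18.1 at CT34, and 9.83 and 6.51 reads of the mitochondrial genome. Reads per base of the 5' part over the 3' part had a median log2 of 0.52 at CT28 and 0.76 at CT34. It was 0.29 at CT22 and 0.85 at CT40, over 4757 genes. Each part sums the reads of its exons, and a read that spans exons can count in each of them. Akr1d1 at CT28 had 7753 and 1694 reads in its parts against 4347 for the transcript. The values therefore show a difference between libraries and not the size of a 5' lean within 1 library. Markers of hepatocytes, all 19 of them measured, were present at both times, with a median log2 ratio of -0.08 and no member past 2-fold. In Clock, reads that skipped exon 19, the exon lost in this allele, numbered 31 at CT28 and 44 at CT34, against 1 read on each side of the exon at CT28 and none at CT34.

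The circadian clock of liver cells is a feedback loop of transcription factors. CLOCK or its relative NPAS2 pairs with BMAL1, encoded by Arntl, and activates the Per and Cry repressors, the REV-ERB receptors encoded by Nr1d1 and Nr1d2, and the PAR bZIP factors Dbp, Tef and Hlf. Liver genes also follow feeding through insulin, which holds the FoxO factors out of the nucleus, and pulses of growth hormone, which act through STAT5.

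The spread of all 9244 genes was narrow. Of these genes 94.9% lay within 1.5-fold, 240 (2.60%) were higher by 1.5-fold or more, and 228 (2.47%) were lower by as much. The median log2 ratio was 0.01, and 95% of the genes lay between -0.58 and 0.59. At 3-fold 6 genes were higher and 18 lower, and at 8-fold 1 was higher (Igfbp1) and 1 lower (Dmbt1). The interval lay wholly beyond 2-fold for 14 higher and 33 lower genes. The balance of the 2 directions turned under some alternatives. On the deposited values with a pseudocount of 0.1 and no TMM scaling 40 genes were higher and 35 lower, with the median of all genes at 0.12. With reads of the 5' part alone 153 were higher and 48 lower, with the 3' part alone 31 and 71, and with junction reads alone 117 and 57.

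**Figure D1:**
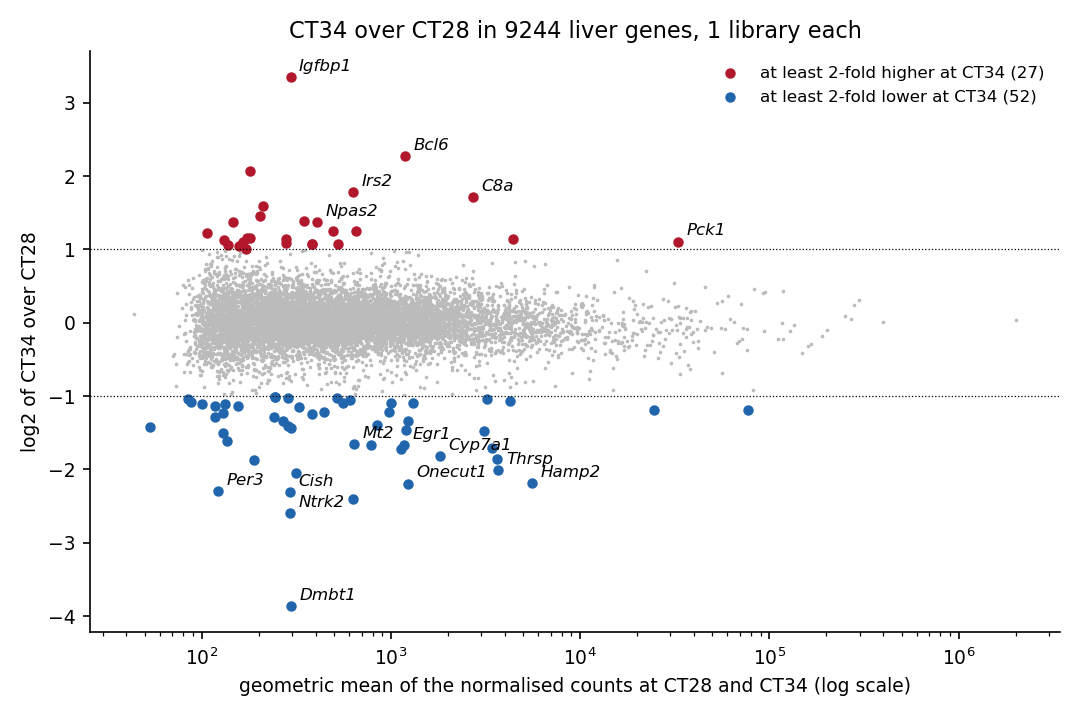
Log2 ratio of CT34 over CT28 (vertical axis) against the geometric mean of the 2 normalised counts (horizontal log axis) for 9244 genes, with 1 point per gene and dotted lines at 2-fold. The 27 genes in red lie above the upper line and the 52 in blue below the lower line, with Igfbp1 the highest at 10.2-fold and Dmbt1 the lowest, 14.5-fold down.

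Igfbp1, which encodes a liver-secreted protein that binds insulin-like growth factors and is a classical target repressed by insulin, stood highest. Its normalised counts were 501.5, 92.5, 943 and 1354 in time order (CT22, CT28, CT34, CT40), so that CT28 was the low point and CT34 lay 10.2-fold above it (interval 8.24 to 12.7). Irs2, an adaptor of the insulin receptor whose gene FoxO activates, had counts of 161, 341.5, 1178 and 960 in time order and was 3.45-fold higher (3.06 to 3.90). Pck1, the cytosolic enzyme that commits carbon to gluconeogenesis, had 30547, 22366, 48140 and 26258 and was 2.15-fold higher (2.12 to 2.19). In bulk tissue fewer cells of a type and less RNA per cell cannot be told apart, here or for any gene below.

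All 3 belong to a list of insulin and FoxO genes, of which 14 of 15 were compared. Past 2-fold were 3 members on the higher side and none on the lower, 12 were higher and 2 lower by any amount, and the median log2 ratio was 0.24. That median was 0.34 in the 5' part and 0.09 in the 3' part. Over all genes 52.2% were higher by any amount and 47.8% lower. Sesn3, a stress-responsive FoxO target, came next at 1.87-fold (1.46 to 2.41), from 98.4 to 184. The FoxO factors themselves were nearly level: Foxo1 was at 1.06-fold (0.974 to 1.14). The other gluconeogenic target G6pc, the glucose-6-phosphatase, was at 1.25-fold (1.204 to 1.294), and the coactivator gene Ppargc1a went the other way, at 0.727 (0.604 to 0.874). Igfbp1 lies at chr11:7097785-7102549 and Irs2 at chr8:10986964-11008430 in mm9. Their promoters are shown because both hold, in the 250 bases before the RefSeq start site, the letters CAAAACA on either strand, the core of the insulin response sequence. Capitals mark the match, which begins 108 bases before the start in Igfbp1 (chr11:7197537-7197786, plus strand, GRCm38.p6) and 37 bases before it in Irs2 (chr8:11008930-11009179, minus strand).
Igfbp1: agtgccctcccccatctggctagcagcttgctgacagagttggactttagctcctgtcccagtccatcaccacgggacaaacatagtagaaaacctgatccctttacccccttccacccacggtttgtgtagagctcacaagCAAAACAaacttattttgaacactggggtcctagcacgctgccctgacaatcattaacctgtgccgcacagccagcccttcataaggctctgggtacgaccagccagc
Irs2: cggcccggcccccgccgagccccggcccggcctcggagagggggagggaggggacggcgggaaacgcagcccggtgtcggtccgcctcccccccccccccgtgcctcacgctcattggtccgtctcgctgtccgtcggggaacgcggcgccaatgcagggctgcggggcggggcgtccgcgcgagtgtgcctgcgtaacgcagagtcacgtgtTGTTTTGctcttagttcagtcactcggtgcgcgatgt
Pck1 had no such match in its window. Among the 7347 compared genes with a RefSeq window 4.78% held these letters, as did 2 of 22 genes with a window that were 2-fold higher and 3 of 32 that were 2-fold lower (Dpy19l3, Mup7 and Thrsp). The FoxO letters GTAAACA were in 2.91% of all genes with a window and in neither promoter shown, and CAAAACA was searched only after GTAAACA had given no match in Igfbp1. A match is a description of the letters and not a site, and 1548 genes had more than 1 window and so more chance of a match.

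Genes of the growth hormone pathway held large ratios in both directions. Cish, which encodes an SH2 protein that STAT5 induces and that damps cytokine signalling, had normalised counts of 1215, 653, 132 and 185 in time order and was 4.95-fold lower at CT34 (4.09 to 6.02). Socs2, a second feedback inhibitor of growth hormone signalling, had 393, 673, 291 and 406 and was 2.31-fold lower (2.01 to 2.67), or 1.92-fold in the 5' part. Onecut1, which encodes the growth-hormone-responsive factor HNF6, had 1907, 2623, 573 and 799 and was 4.58-fold lower (4.18 to 5.02). In Cish the 2 earlier times were high and the 2 later times low, whereas Socs2 was highest at CT28 alone. Bcl6, a repressor that shares binding sites with STAT5 and that growth hormone represses, went the opposite way. Its counts were 413, 540, 2617 and 1340, and CT34 was 4.85-fold above CT28 (4.42 to 5.32).

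Of the 11 genes in this list, all compared, 1 passed 2-fold upwards and 3 downwards, with a median log2 ratio of 0.01. The hormone's receptor and main endocrine product were near level. Ghr was at 0.854 (0.826 to 0.883) and Igf1 at 0.962 (0.939 to 0.986), while the transducers Stat5a, at 1.37-fold (1.24 to 1.51), and Stat5b, at 1.39-fold (1.301 to 1.48), were higher. The STAT letters TTCNNNGAA, read on both strands, were in 6.82% of all compared genes with a window. They were in 5 of the 22 higher genes with a window (Arsg, Bcl6, C8a, Cyp4b1 and Eif2ak3) and in 2 of the 32 lower genes, Hamp and Hamp2. The windows of Cish and Onecut1 did not hold them.

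**Figure D2:**
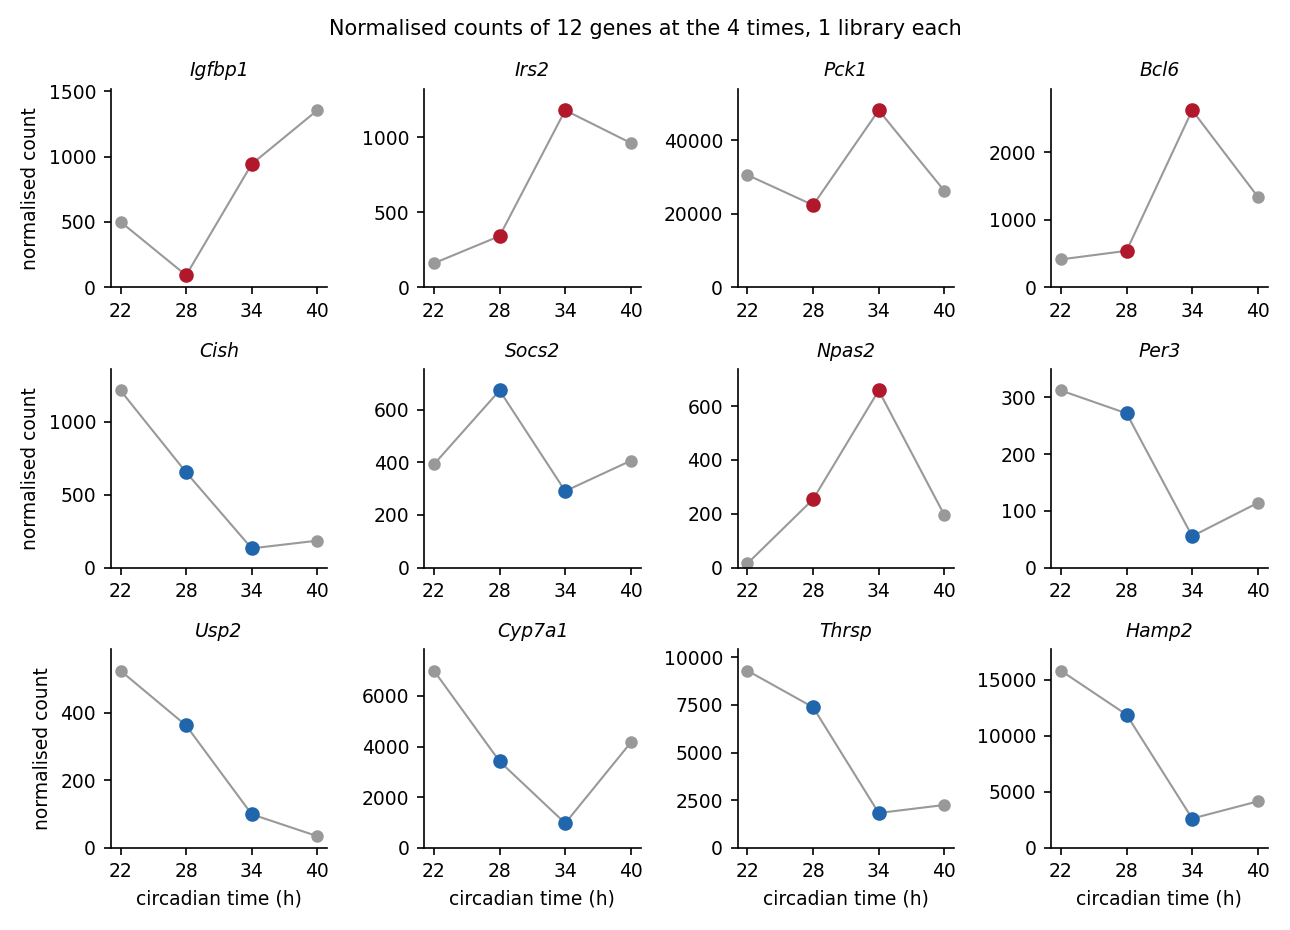
Normalised counts (vertical axes, from 0) of 12 genes against circadian time in h (horizontal axes), with 1 library per point and CT28 and CT34 in red where CT34 is higher and in blue where it is lower. Igfbp1 has its lowest point at CT28, Bcl6, Irs2, Npas2 and Pck1 peak at CT34, and Per3, Cyp7a1, Thrsp and Hamp2 are lowest at CT34.

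Among the clock genes Per3, Tef and Npas2 passed 2-fold. Per3, a repressor of the loop, had normalised counts of 312, 272, 55.3 and 114 in time order and was 4.91-fold lower at CT34 (3.66 to 6.71). It was high at CT22 and CT28 and low at the 2 later times. On the deposited values with a pseudocount of 1 it was 1.95-fold lower, and that scale shrinks the ratio where values are low. Tef, a PAR bZIP factor that carries clock time to output genes, had 1360, 1468, 687 and 938 and was 2.14-fold lower (1.95 to 2.34), but 1.63-fold in the 5' part and 1.65-fold with junction reads. Npas2, the partner of BMAL1 that can replace CLOCK, had 15.5, 254, 658 and 195.5 and was 2.59-fold higher (2.24 to 3.01), with its peak at CT34.

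Of the 26 core clock genes 20 were compared, 1 at least 2-fold higher, 2 at least 2-fold lower, 13 higher and 7 lower by any amount, with a median log2 ratio of 0.12. The activators Arntl, at 1.22-fold (1.11 to 1.34), and Clock, at 1.10-fold (1.02 to 1.18), moved little. Repressors were split: Per2 was 1.75-fold lower (1.603 to 1.92) and Bhlhe40 1.48-fold lower (1.40 to 1.57), while Per1 was at 1.17-fold (1.02 to 1.35) and Cry1 at 1.15-fold (1.019 to 1.298), which was 0.938 in its 3' part. Bhlhe40 was 1.10-fold lower in its 5' part. The paired REV-ERB genes were also split. Nr1d2 stood at 351, 201, 102 and 415 and was 1.96-fold lower (1.54 to 2.52), just inside the 2-fold limit, whereas Nr1d1 was at 1.05-fold (0.917 to 1.21). Nfil3, which opposes the PAR bZIP factors at the same sites, was at 1.27-fold (1.15 to 1.39) and Hlf at 0.776 (0.720 to 0.837). Dbp, Ciart and Wee1 had too few reads for the comparison, with 55.1, 43.3 and 72.8 at CT28 and 42.0, 19.5 and 32.8 at CT34.

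Genes controlled by the clock were led by Usp2, a deubiquitinating enzyme, and Upp2, a uridine phosphorylase. Usp2 had normalised counts of 524, 362, 99.3 and 34.5 and was 3.65-fold lower at CT34 (2.91 to 4.61), or 2.31-fold on the deposited values with a pseudocount of 1. Upp2 had 13469, 5142, 1855 and 6993 and was 2.77-fold lower (2.63 to 2.93). Alas1, the first enzyme of heme synthesis, was 1.88-fold lower (1.84 to 1.92) and Nampt, of NAD salvage, 1.61-fold lower (1.42 to 1.83). Of 13 compared output genes 2 were at least 2-fold lower and none as much higher, 6 were higher and 7 lower, with a median of -0.36. In the 5' part the median was 0.13, the same as over all 9244 genes. In the 3' part it was -0.37, against -0.04 over all genes. The Per3 promoter is shown because it holds the D-box letters TTATGNAA, to which PAR bZIP factors and NFIL3 bind, at 2 places, beginning 205 and 158 bases before the start (chr4:151044666-151044915, minus strand, GRCm38.p6; the gene is at chr4:150377761-150418774 in mm9).
Per3: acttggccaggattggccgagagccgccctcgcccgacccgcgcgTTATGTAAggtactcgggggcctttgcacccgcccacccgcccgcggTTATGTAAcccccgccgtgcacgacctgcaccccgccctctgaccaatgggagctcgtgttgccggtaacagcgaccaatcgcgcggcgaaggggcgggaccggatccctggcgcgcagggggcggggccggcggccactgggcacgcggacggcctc
These letters were in 2.68% of all compared genes with a window, in none of the 22 higher genes and in 5 of the 32 lower genes (Cyp2a5, Cyp2b10, Hao2, Mup7 and Per3). The E-box CACGTG, bound by CLOCK with BMAL1, was in 10.5% of all genes with a window, in 2 of the 22 higher genes (Bcl6 and Irs2) and in 2 of the 32 lower ones (Onecut1 and Tef). The ROR letters TAGGTCA were in 2.22% of all genes with a window, in none of the higher genes and in Cxcl9 alone among the lower.

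Genes of fat synthesis were mostly lower at CT34. Thrsp, a small nuclear protein that follows carbohydrate feeding and lipogenesis, had normalised counts of 9291, 7373, 1827 and 2248 and was 4.04-fold lower (3.83 to 4.25). Angptl8, an insulin-induced regulator of lipoprotein lipase, had 4122, 6174, 1884 and 760 and was 3.28-fold lower (3.11 to 3.45). Of 20 lipogenic genes compared 2 were at least 2-fold lower and none at least 2-fold higher, and 16 were lower and 4 higher by any amount, with a median log2 ratio of -0.21. Scd1, the stearoyl-CoA desaturase, was 1.89-fold lower (1.87 to 1.91), whereas Fasn, the fatty acid synthase, was at 0.946 (0.929 to 0.962), with 1.39 in the 5' part, and the regulator Srebf1 at 1.002 (0.968 to 1.04). Pklr, the liver pyruvate kinase, was 1.73-fold lower (1.65 to 1.81), but 1.16-fold in the 5' part. Exons of another gene cover 24.5% of its length.

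Genes of the fasting response under PPARα leaned the other way, without a member past 2-fold. Of 25 compared 17 were higher and 8 lower, 5 were higher by 1.5-fold or more and Acot3 alone was lower by as much, with a median of 0.10. Cyp4a14, a fatty acid omega-hydroxylase, was at 1.63-fold (1.603 to 1.665), and Angptl4, a fasting-induced lipase inhibitor, at 1.58-fold (1.47 to 1.71). Acot1, an acyl-CoA thioesterase, was at 1.93-fold (1.74 to 2.14), with a total including multi-mapped reads of 1.47 times the unique reads. Acot3, of the same enzyme family, was 1.78-fold lower (1.57 to 2.01). Genes of cholesterol synthesis had no member past 2-fold, with 12 of 25 higher and a median of -0.01, which turned to 0.02 with scaling by total reads. Within that list the regulator genes Scap, at 1.45-fold (1.39 to 1.52), and Srebf2, at 1.43-fold (1.35 to 1.51), were higher, and the enzyme gene Dhcr7 was 1.41-fold lower (1.35 to 1.46).

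Bile acid genes lay on both sides. Cyp7a1, the rate-limiting enzyme of the classical pathway, had normalised counts of 6994, 3413, 971 and 4160 and was 3.51-fold lower at CT34 (3.27 to 3.78), its low point. Cyp8b1, which sets the proportion of cholic acid, had 5141, 3383, 5995 and 10753 and was at 1.77-fold (1.70 to 1.85). Akr1d1, a later reductase, was 1.84-fold lower (1.75 to 1.93). Of 18 bile acid genes compared 1 was at least 2-fold lower and 12 were lower by any amount, with a median of -0.08.

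**Figure D3:**
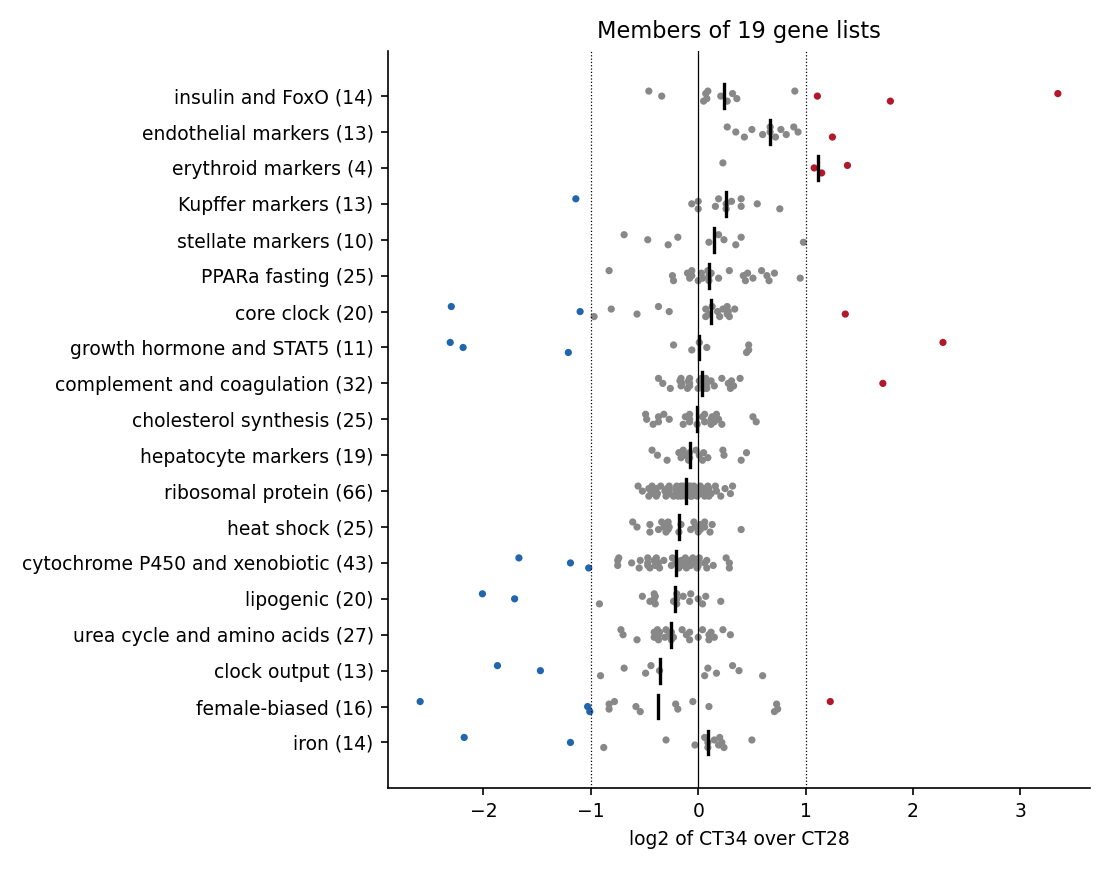
Log2 ratio of CT34 over CT28 (horizontal axis) for the compared members of 19 gene lists (rows, with the number compared), where points are genes, black bars are medians, dotted lines mark 2-fold, red points are at least 2-fold higher and blue points at least 2-fold lower. All 13 endothelial markers lie to the right of 0, and 34 of 43 cytochrome P450 and xenobiotic genes to its left.

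Both hepcidin genes were lower at CT34. Hepcidin is the liver hormone that blocks iron release from cells, and in the mouse it is encoded by Hamp, with the close copy Hamp2. Hamp had normalised counts of 102829, 116724, 51259 and 57147 and was 2.28-fold lower (2.25 to 2.30). Hamp2 had 15795, 11872, 2612 and 4143 and was 4.55-fold lower (4.36 to 4.75). In both genes the 2 earlier times were high and the 2 later times low. Multi-mapped reads brought the totals to no more than 1.07 times the unique reads. With them the ratio of Hamp2 was 0.253, against 0.220 (0.211 to 0.230) on unique reads, and that of Hamp 0.441 against 0.439. Tfrc, the transferrin receptor, was 1.84-fold lower (1.497 to 2.261), while Trf, which encodes transferrin, was at 1.18-fold (1.18 to 1.19). In the iron list 14 of 15 genes were compared, with 2 at least 2-fold lower, 9 higher by any amount and a median of 0.09. The STAT letters TTCNNNGAA were in 6.25% of the lower genes with a window (2 of 32), near the 6.82% of all compared genes with a window. Those 2 were the hepcidin genes, which are close copies. The 2 hepcidin promoters are shown because both hold these letters, in capitals, beginning 97 bases before the start in Hamp (chr7:30944030-30944279, minus strand, GRCm38.p6) and 94 bases before it in Hamp2 (chr7:30924182-30924431, minus strand).
Hamp: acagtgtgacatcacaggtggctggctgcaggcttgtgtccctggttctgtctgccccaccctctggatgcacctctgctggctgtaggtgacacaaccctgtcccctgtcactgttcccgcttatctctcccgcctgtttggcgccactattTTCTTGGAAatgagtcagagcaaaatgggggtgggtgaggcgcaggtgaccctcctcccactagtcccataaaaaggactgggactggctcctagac
Hamp2: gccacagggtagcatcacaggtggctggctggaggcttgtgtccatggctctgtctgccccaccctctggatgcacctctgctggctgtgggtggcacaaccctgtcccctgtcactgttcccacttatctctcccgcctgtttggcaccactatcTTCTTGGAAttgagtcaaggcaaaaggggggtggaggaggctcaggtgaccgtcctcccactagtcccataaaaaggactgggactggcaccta
The metallothionein genes, which bind zinc and copper, did not move as a pair. Mt2 had 1218, 1137, 360 and 7406 and was 3.16-fold lower at CT34 (2.80 to 3.56). Mt1 had 14759, 7177, 7282 and 36993 and was at 1.01-fold (0.982 to 1.05).

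Genes of drug and steroid metabolism were mostly lower. Cyp2b10, a cytochrome P450 induced through the receptor CAR, had normalised counts of 990, 1405, 441 and 711 and was 3.19-fold lower (2.86 to 3.56). Cyp2a5, which oxidises coumarin and nicotine, had 32672, 36979, 16249 and 18897 and was 2.28-fold lower (2.23 to 2.32). Of 43 compared 34 were lower and 9 higher by any amount, 3 were at least 2-fold lower and none at least 2-fold higher, with a median of -0.21. The third was Gsta2, a glutathione transferase, 2.03-fold lower (1.71 to 2.42), which stayed past 2-fold in 7 of 14 alternatives. In the 5' part Cyp2a5 was 1.94-fold lower. Genes of the urea cycle and amino acid breakdown had a median of -0.25, with 19 of 27 lower and none past 2-fold. Their median was -0.04 in the 5' part and -0.27 in the 3' part. Ass1, a urea cycle enzyme, was 1.62-fold lower (1.59 to 1.65), with a total including multi-mapped reads of 2.85 times the unique reads.

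Other genes at least 2-fold higher came from several lists or from none. C8a, a chain of the terminal complement complex and a male-biased liver gene, had normalised counts of 7512, 1490, 4897 and 6247 and was 3.29-fold higher at CT34 (3.10 to 3.49), since CT28 was its low point. It was the only one of 32 complement and coagulation genes past 2-fold. Enho, which encodes the peptide adropin, had 356.5, 121, 366 and 378.5 and was 3.03-fold higher (2.46 to 3.75). Creb3l2, a membrane-bound transcription factor of the secretory pathway, was 2.38-fold higher (2.13 to 2.67), and Eif2ak3, the stress kinase PERK of the endoplasmic reticulum, 2.22-fold higher (1.86 to 2.65). The list of endoplasmic reticulum chaperones and stress genes, which does not hold these 2, had no member past 2-fold in 24 and a median of 0.06. Plxnc1, a semaphorin receptor, was 2.75-fold higher (2.23 to 3.40), Spon2, an extracellular matrix protein, 2.58-fold (2.02 to 3.32), and Apol7d, of the apolipoprotein L family, 2.11-fold (1.86 to 2.40). On the deposited values with a pseudocount of 1 Plxnc1 was at 1.77-fold and Eif2ak3 at 1.84-fold. Junction reads alone put Enho at 5.69-fold.

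Lower at CT34 were Ntrk2, Serpina4-ps1, Chrna4 and Egr1. Ntrk2, the receptor TrkB and a female-biased liver gene, had normalised counts of 57.0, 722, 120 and 402 and was 6.03-fold lower (4.956 to 7.395). Chrna4, a subunit of the nicotinic acetylcholine receptor, had 274, 641, 156 and 378.5 and was 4.12-fold lower (3.45 to 4.95). On the deposited values with a pseudocount of 1 Ntrk2 was 2.86-fold and Chrna4 2.62-fold lower. In both genes CT28 was the highest time. Egr1, an immediate early transcription factor, was also highest at CT28, with 73.6, 2099, 662 and 1093, and was 3.17-fold lower at CT34 (2.90 to 3.47). Serpina4-ps1, a serpin pseudogene, had 4489, 1445, 274 and 1548 and was 5.27-fold lower (4.62 to 6.02). The largest ratio on recovered reads was that of Dmbt1, a secreted scavenger-receptor protein of epithelia, named here after its values were seen because its total with multi-mapped reads, at 1.22 times the unique reads, is just over the limit of 1.2 set for named genes. It had 141, 1131, 77.8 and 722, with both CT28 and CT40 high, and was 14.5-fold lower at CT34 (11.5 to 18.6). In the 5' part Dmbt1 was 8.24-fold lower and on the deposited values with a pseudocount of 1 it was 5.13-fold lower, and in both settings the ratio of Igfbp1 was the larger.

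The remaining genes past 2-fold, named after their values were seen, held a few with known roles in the groups above. Cd163, the macrophage receptor that takes up haemoglobin, had normalised counts of 180, 117, 260 and 149.5 and was 2.22-fold higher at CT34 (1.78 to 2.78). Scara5, a ferritin receptor, had 218, 199, 85.0 and 85.3 and was 2.34-fold lower (1.80 to 3.06). Slc10a2, the sodium-dependent bile acid transporter, was 2.15-fold lower (1.67 to 2.80), from 194 to 90.1. The better-covered of them were lower: Tsku, which encodes the secreted protein tsukushi, had 5652, 6201, 2956 and 1929 and was 2.10-fold lower (2.01 to 2.19), and Hcn3, a cation channel, had 2028, 1952, 773 and 720.5 and was 2.53-fold lower (2.32 to 2.75). Also lower were Phlda1, Mcm10, Clec2d, Lrtm1, Mtmr7, Cyp2g1, Tuft1, Zyg11a, Gm14403, Gm16170 and Zfp970, and also higher were Loxl4, Pitx3, Arsg and Cyp4b1. Except for Hcn3 and Zfp970, each of these genes was not past 2-fold under at least 1 alternative, with Scara5 at 1.55-fold and Cd163 at 1.69-fold on the deposited values with a pseudocount of 1, Slc10a2 at 1.73-fold with the GC and length trend removed, and Tsku at 1.89-fold with junction reads. List members given above with ratios near 1, such as Foxo1, Ghr, Igf1, Fasn, Srebf1 and Trf, were likewise chosen after their values were seen, to show the members that did not differ much.

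Heat shock genes, many of which follow body temperature and feeding, had no member past 2-fold at CT34, although 17 of 25 were lower (median -0.18). Their median was -0.02 in the 5' part and -0.24 in the 3' part. Hspa8, a constitutive chaperone, was 1.36-fold lower (1.34 to 1.39), though at 1.06 in the 5' part, with a total including multi-mapped reads of 1.68 times the unique reads. Ribosomal protein genes were lower in 48 of 66, none past 2-fold, with a median of -0.12, or -0.03 once a trend in GC content and length was removed. Among 15 glucocorticoid-induced genes 8 were higher and 7 lower, and Mt2 was the only one past 2-fold.

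Markers of the other cells of the liver were not level. Endothelial markers were higher at CT34 in all 13 compared of 14, 9 of them at least 1.5-fold and 1 at least 2-fold, with a median log2 ratio of 0.67. Their summed normalised counts were 5413, 6160, 9780 and 7138 in time order. Kdr, the receptor VEGFR2, had 283, 323, 766 and 461 and was 2.37-fold higher (2.08 to 2.71), Stab1, a scavenger receptor of sinusoids, was at 1.85-fold (1.68 to 2.03), and Cdh5, the endothelial cadherin, at 1.77-fold (1.56 to 2.0). The size depended on the part of the transcript: the median was 1.07 in the 5' part and 0.65 in the 3' part, against 0.14 and -0.04 over all genes. Their intron reads, measured in 12, were higher in 5 and lower in 7, with a median of -0.06 against -0.28 over all genes. Outside the list, Gpihbp1, which anchors lipoprotein lipase to capillaries, was at 2.15-fold (1.72 to 2.72), and Adgrl4, an adhesion receptor of endothelium, at 2.18-fold (1.69 to 2.84), both named after their values were seen. Adgrl4 was at 1.13-fold in its 3' part. The part of the 5' coverage in these ratios was not tested.

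Kupffer cell markers were higher in 10 of 13, with a median of 0.26 and summed counts of 8378, 7681, 8957 and 8003. Their median was 0.60 in the 5' part and 0.18 in the 3' part, and their introns, measured in 9, were lower in all 9, with a median of -0.70. Introns of 79.6% of all genes measured were lower too, with a median of -0.28. Csf1r, the macrophage growth factor receptor, was at 1.46-fold (1.33 to 1.61), with 2.33 in the 5' part and 1.33 in the 3' part. Marco, a scavenger receptor, went against the rest at 116, 232, 105 and 98.7 and was 2.20-fold lower (1.74 to 2.80). In its 5' part Marco was 1.69-fold lower. Stellate cell markers were split, with 6 of 10 higher. Reln, a matrix protein, was at 1.97-fold (1.80 to 2.16) and the collagen gene Col1a1 was 1.61-fold lower (1.32 to 1.96), but 1.14-fold in its 5' part.

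Haemoglobin genes, which mark red cell precursors and residual blood, were higher at CT34. Hba-a1 had normalised counts of 4112, 2967, 6569 and 1344 and was 2.21-fold higher (2.12 to 2.31), Hba-a2 2.62-fold (2.23 to 3.08), and Hbb-b2 2.11-fold (1.82 to 2.45). Most of their reads are shared with near-identical copies (totals of 15.6, 187 and 25.02 times the unique reads), and the symbols Hbb-bt and Hbb-b2 hold the same reads, so they count as 1 locus among the 27. With multi-mapped reads the ratios of Hba-a1 and Hba-a2 were 2.09 and 2.08. Alas2, the heme synthesis enzyme of red cell precursors, was at 1.17-fold (1.09 to 1.26), and Slc4a1, the anion exchanger of red cells, had fewer than 100 reads at every time. All 4 compared erythroid markers were higher, with summed counts of 6912, 4815, 9290 and 2789. Markers of neutrophils, adipocytes and skeletal muscle had no gene that passed the read filter. Other genes past 2-fold with many shared reads are uncertain in the same way: Cyp3a41b (41.4 times), Cyp3a44 (3.23 times), Mup7 (185 times) and C4a (5.92 times), whose ratio with multi-mapped reads was 0.989.

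Xist, expressed from the inactive X chromosome of female cells, and Y-linked genes were both present at each time. Xist had normalised counts of 9915 at CT28 and 7765 at CT34, and the sum of 4 Y-linked genes (Ddx3y, Eif2s3y, Kdm5d and Uty) 696 and 445, so both were lower at CT34. Of 16 female-biased liver genes compared 3 were at least 2-fold lower (Ntrk2, Fmo2 and Hao2) and Cyp3a44 alone was as much higher, and 11 were lower, with a median of -0.38. Fmo2 was past 2-fold in 8 and Hao2 in 7 of 14 alternatives. Of 20 male-biased genes C8a was the only one past 2-fold upwards and Mup7 the only one downwards, and 12 were lower, with a median of -0.14. Whether a different mix of sexes in the pools bears on these ratios was not tested.

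Intron reads were used as a second measure, since introns come mainly from RNA not yet spliced. At least 50 intron reads were counted for 8139 genes, and the whole set leaned down: 79.6% were lower at CT34 and 20.4% higher, with a median log2 ratio of -0.28. At 2-fold 252 genes (3.10%) were lower and 18 (0.221%) higher. Of the 52 genes at least 2-fold lower in all reads, 42 had enough intron reads. All 42 were lower in introns, 33 of them at least 2-fold, with a median of -1.51. Of the 27 higher genes 18 had enough, 15 were higher in introns and 4 at least 2-fold, with a median of 0.55. The selection used the reads of the whole transcript from the same libraries, so these counts are a description.

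Cyp7a1 had scaled intron reads of 427 at CT28 and 53.2 at CT34, an 8.02-fold difference against 3.51-fold in all transcript reads. In Thrsp intron reads were 6.24-fold lower, from 696 to 112. Among the higher genes Bcl6 differed most between the 2 measures, with 978 and 1057 intron reads, a ratio of 1.08, against 4.85-fold in all reads. Kdr was similar, at 77.7 and 74.7. Igfbp1 introns, at 45.3 and 150.5, were 3.32-fold higher, Npas2 introns 1.76-fold and Irs2 introns 1.89-fold. Intron reads can include exons of other transcripts, and the libraries are not stranded.

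**Figure D4:**
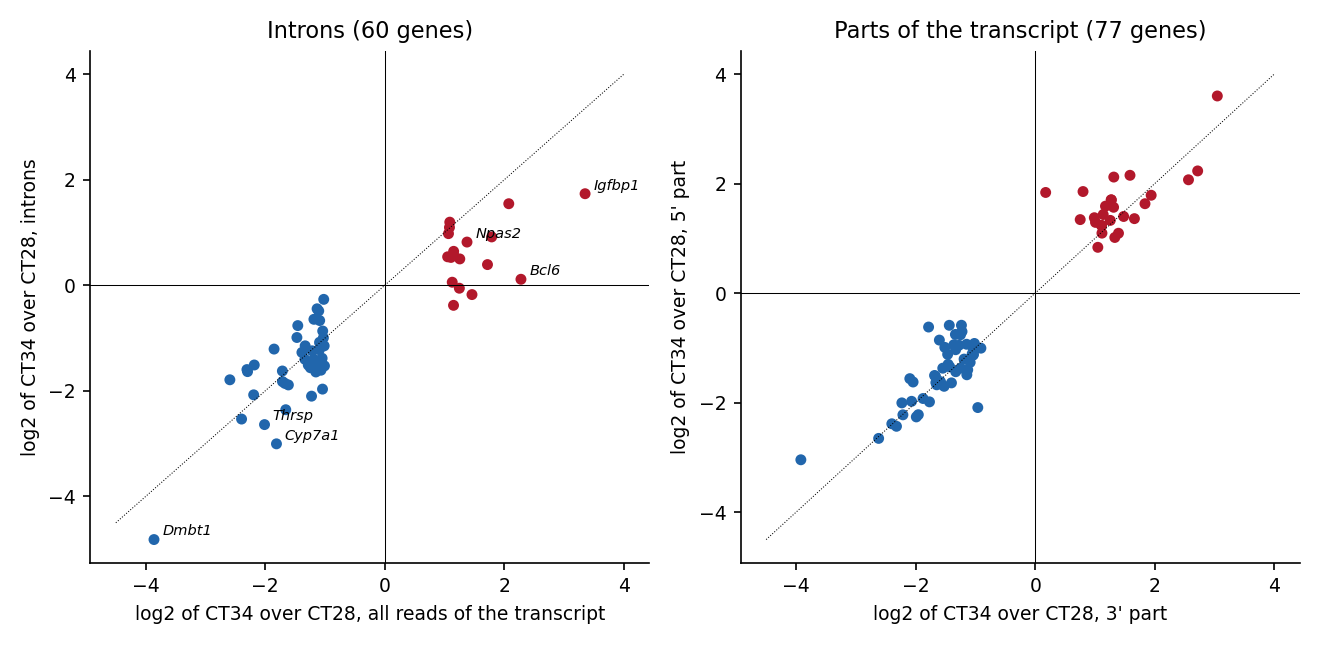
Log2 ratio of CT34 over CT28 for genes at least 2-fold higher (red) or lower (blue). Left, introns (vertical) against all reads of the transcript (horizontal) for 60 genes, where Bcl6 lies near 0 on the vertical axis; right, the 5' part (vertical) against the 3' part (horizontal) for 77 genes, with dotted lines of equality.

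Because 5' coverage differed between the libraries, each transcript was also measured in its 5' and 3' parts, with every exon assigned by whether its middle lay before or after the midpoint of the transcript. Over 8708 genes the median log2 ratio was 0.14 in the 5' part and -0.04 in the 3' part. Of the higher genes 26 could be measured in both parts; 21 were at least 2-fold higher in both and 25 at least 1.5-fold in both. Of the lower genes 51 could be measured, 36 at least 2-fold lower in both and all 51 at least 1.5-fold lower in both. The genes with the largest ratios had both parts far from 0: Igfbp1 was 12.1-fold higher in the 5' part and 8.26-fold in the 3' part, and Cish was 5.23-fold lower and 5.27-fold lower. A trend in GC content and length accounted for 6.99% of the variance of the log2 ratio, and with it removed 23 of the 27 higher and 46 of the 52 lower genes were still past 2-fold.

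Across the 4 times, 20 of the 27 higher genes were highest at CT34, 4 at CT40 and 3 at CT22. Their lowest time was CT28 in 11, CT22 in 11 and CT40 in 5. Of the 52 lower genes 37 were lowest at CT34, 10 at CT40 and 5 at CT22, and their highest time was CT28 in 28, CT22 in 22 and CT40 in 2. The choice of genes on CT28 and CT34 sets part of this pattern, so it is given with no test. At the 2-fold limit the members just inside were Slc34a2, a phosphate transporter, at 2.01-fold higher but past the limit in only 6 of 14 alternatives, and Hao2, a peroxisomal oxidase, at 2.01-fold lower. Just outside were Bmp2, a ligand of the hepcidin pathway, at 1.99-fold higher (3.35 in the 5' part and 1.22 in the 3' part), and Foxa2, a liver transcription factor, at 1.98-fold lower.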

How the data were processed

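Polyadenylated liver RNA of 3 pooled animals per time was sequenced as 1 library at each of 4 times, and the libraries CT28 and CT34 were compared. Per the submitters' processing notes the build was mm9. The authors' deposited feature tables give a lower value, taken here as unique reads, and an upper value, taken as unique plus multi-mapped reads, for each transcript, exon and intron, in a unit the files do not name. Per the file headers, the deposited junction files hold read counts from the aligner RUM. For its version, the counting rule and the annotation the entry is: not given in the sources used here.

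Multiplied by feature length, 100.0% of low and moderate transcript values were whole multiples of a library's step, and this gave back the reads. Of 115699 transcripts, 26046 got a symbol through RefSeq and 53799 through Vega accessions, and 35854 got none. The transcript with the highest mean stood for each gene. TMM factors came from edgeR 4.0.16 in R 4.3.3 over the 4 libraries, and the minimum was a mean of 100 reads. A ratio has counts below 3 set to 3, and its 95% interval is exact, from the binomial split of the counts of the 2 libraries. The code was tested on simulated data. Without replicates, no test was made.

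Named genes were the top 15 each way, ranked by the interval's bound nearest to 1, with a total including multi-mapped reads of at most 1.2 times the unique reads, all measured core clock genes, and up to 4 per list, those with the largest absolute log2 ratio; exceptions are named as such. The members and the 46 gene lists were chosen with earlier results of these data known. Promoter windows are RefSeq, GRCm38.p6, a build other than that of the counts, with no coordinates converted. The alternatives were DESeq2 1.42.0 size factors, other scalings, read filters, transcripts, transcript parts, pseudocounts on the deposited values, multi-mapped reads and junction reads.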

Additional observations from a re-analysis of the deposited data

Results flagged for a closer look

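Signals outside the gene comparison were found in reads of the mitochondrial genome and in loci without a symbol, for which no control library exists. Reads of the mitochondrial genome, which were not among the genes compared, came to 9.83 per 100 gene reads at CT28 and 6.51 at CT34, with 17.5 at CT22 and 6.26 at CT40. Of 81 loci that got no gene symbol here and had a mean of at least 100 reads, 4 were at least 2-fold higher or lower at CT34. One of the 2 higher loci, a spliced transcript of 3 exons at chr8:10899922-10902463 (mm9, plus strand, uc009kuw.1), had normalised counts of 226, 254, 819 and 919 in time order and was 3.23-fold higher at CT34 (2.80 to 3.73). The other higher locus shares most of its reads with near-identical copies, with a total of 38.7 times its unique reads. Of the 2 lower loci, that at chr18:60598949-60602911 had 345, 479, 92.1 and 136 and was 5.20-fold lower (4.15 to 6.59), the largest ratio of the 4. That at chr11:5906291-5908331 had 6049, 5518, 2755 and 2930 and was 2.00-fold lower (1.91 to 2.10), with a total of 1.25 times its unique reads.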

How the results depend on the processing

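Against 27 genes at least 2-fold higher and 52 lower, the counts were 93 and 134 with a mean of at least 20 reads, 8 and 27 with at least 500, 413 and 429 with no filter, 240 and 228 at 1.5-fold, 6 and 18 at 3-fold, and 14 and 33 with the counting interval beyond 2-fold. They were 153 and 48 in the 5' part, 31 and 71 in the 3' part, 40 and 35 on the deposited values with a pseudocount of 0.1, 20 and 26 with a pseudocount of 1, and 117 and 57 with junction reads alone, an alternative chosen after seeing the data. Of the genes past 2-fold, 26 higher and 38 lower were shared with the 5' part, 22 and 50 with the 3' part, and 24 and 40 with the junction reads. The cause of these shifts was not tested, beyond the changed number of genes or threshold. The other scalings gave 26 to 35 higher and 47 to 52 lower. Lower genes outnumbered higher ones except at 1.5-fold, in the 5' part, with junction reads and with a pseudocount of 0.1, where the order turned. Of gene ratios 1116 kept within their counting interval and 210 moved beyond it, and of list medians 1 of 389 moved, that of the ribosomal protein genes. List medians were recomputed only under other scalings, read filters, multi-mapped reads and the trend in GC content and length. Transcript parts, other transcripts, junction reads and deposited values were left out of that count. In the 5' part some medians lay outside the interval of the main median. Endothelial markers had 1.07 against 0.43 to 0.89, and cholesterol synthesis genes 0.22 against -0.14 to 0.12. Under every alternative 38 genes, 17 higher and 21 lower, were still past 2-fold. With multi-mapped reads C4a, Gm14403, Gsta2 and Mup7 were no longer past it. Depth limits the genes of 100 to 200 reads most, where counting error alone put the upper bound a median of 1.27 times above the ratio. No paired analysis was possible because there is 1 library at each time.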

Other observations

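Genes of antigen presentation and of the interferon-gamma response were mostly lower at CT34. These lists were written after their values had been seen, so their counts are a description. Of 11 MHC class II genes, whose products present peptides on macrophages, dendritic cells and B cells, 4 were compared and all 4 were lower, 3 of them at least 2-fold, with a median log2 ratio of -1.19. H2-Ab1, which encodes the beta chain of the I-A molecule, had normalised counts of 1029, 1363, 521 and 718 in time order and was 2.62-fold lower at CT34 (2.36 to 2.90), or 1.81-fold in the 5' part. Cd74, the invariant chain, was 1.97-fold lower. Of 25 interferon-gamma-induced genes 19 were compared, 17 lower and 2 higher, with 4 at least 2-fold lower and a median of -0.56. Of all genes compared 47.8% were lower by any amount and 0.563% at least 2-fold lower. The 2 higher members were Irf1, at 1.26-fold, and Ifngr1, at 1.13-fold. Among the lower members Gbp11, a guanylate-binding protein, was 3.06-fold lower (2.36 to 4.01), or 1.98-fold on the deposited values with a pseudocount of 1. The chemokine gene Cxcl9, with 541, 466, 175 and 185, was 2.67-fold lower (2.23 to 3.19). Over the 2 lists the summed counts at CT28 and CT34 were 5596 and 2605 for MHC class II, and 12760 and 8989 for the interferon-gamma-induced genes. The macrophage markers described above were mostly higher, with summed counts of 7681 and 8957, and Ptprc, a marker of all leukocytes, was at 0.92.

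Smooth muscle genes, also listed after their values were seen, were lower by any amount in 5 of the 6 compared, against 47.8% of all genes. Past 2-fold were 2 of them, both lower. Mylk, the best covered of the 6, was level at 0.994, with 2614 at CT28 and 2599 at CT34. Des was at 0.878 and Smtn at 1.02, while Tagln was 1.76-fold lower (1.45 to 2.15). Myh11, the smooth muscle myosin, had normalised counts of 36.3, 217.5, 76.8 and 75.7 and was 2.83-fold lower at CT34 (2.17 to 3.73). Acta2, the smooth muscle actin, had 88.1, 375, 153.5 and 121 and was 2.44-fold lower (2.02 to 2.97). On the deposited values with a pseudocount of 1 these were 1.51-fold and 1.98-fold. In both genes CT28 stood above the other times. The share of vessel wall in each piece of liver was not measured.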
